A study of Mus musculus with 62 samples.

Results

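The mammalian circadian clock is described by 10 genes in the diaphragm of tumor-bearing and control mice. They were chosen by name from the core clock and its outputs, not by a threshold on measured values, though with earlier results of these data known. They are 10 of the 13578 genes tested. The study followed cachexia, the loss of muscle and body mass that accompanies some cancers, by RNA-seq of the diaphragm of 62 female mice, each library being from a separate mouse. Mice received an injection of cachectic melanoma cells, of non-cachectic melanoma cells, or a mock injection (control), and the diaphragm was taken 2, 4, 6 or 8 weeks later. Both melanomas were patient-derived xenografts placed in the flank, so human tumor cells grew away from the muscle examined. Each of the 12 conditions had 5 mice, except cachectic mice at 8 weeks, which had 7. The age is given as 2 months, which the methods of the study state for the mice as purchased. The age at collection is not given in the sources used here, so age and weeks after injection cannot be told apart. The labels name the strain C57BL6/J, while the design text of the series and the methods of the study name NCI Ath/nude mice, which lack a thymus and mature T cells. Because each tumor group rests on 1 melanoma stock, the capacity to cause wasting cannot be told apart from other traits of that stock. Levels are TPM, a measure of transcript abundance in which each library has the same sum, scaled for gene length, and differences are between means of log2(TPM + 1), on which the change of low genes is understated. TPM carries no counts, so the depth of each library is unknown.

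In the clock, the activators BMAL1 (the product of Arntl) and CLOCK or its relative NPAS2 bind E-box sequences and drive the Per and Cry genes, whose proteins return to shut the activators down. A further loop runs through the nuclear receptors REV-ERB alpha and beta (Nr1d1 and Nr1d2), which repress Arntl, and the factors DBP and DEC2 (Bhlhe41) act at its output and on E-boxes. Transcripts of these genes rise and fall over the day in most tissues, skeletal muscle included. Mice were kept under a light/dark cycle, and the hour of tissue collection is not given in the sources used here. A difference in the hour of collection between mice and a difference in the amount of a transcript at one hour therefore cannot be told apart.

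Skeletal muscle markers were abundant in every library, with summed levels of 10 genes from 38962 to 95312 TPM and a median of 68789 TPM, led by Acta1. Some libraries stood apart from the rest. In 4 libraries only 15069 to 16389 genes were above 0, against 17909 to 19057 in the other 58. They came from the cachectic group (replicates 3 and 4 of the 2-week mice, replicate 3 of the 8-week mice) and from replicate 5 of the non-cachectic 2-week mice. In 7 libraries the mean log2(TPM + 1) over 10 liver genes was above 6, against a median of 2.08 over all mice: replicates 2, 4 and 5 of the 2-week controls, replicate 1 of the 4-week controls, and cachectic replicates 1 (2 weeks), 5 (6 weeks) and 2 (8 weeks). Most of these libraries belong to 2 weeks. Transcripts of mitochondrially encoded genes made up 54.4 to 61.5% of TPM in the 4 libraries with few genes. At 8 weeks this share was 32.5 to 41.6% in the other 6 cachectic mice, 40.9 to 49.3% in control and 44.7 to 45.6% in non-cachectic mice. At 6 weeks it was 34.3 to 44.9% in cachectic, 44.9 to 47.9% in control and 43.2 to 47.9% in non-cachectic mice. Its part in the differences of clock genes was not tested. No 2 libraries held identical values, and the highest correlation between libraries, taken across genes, was 0.992.

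Over the 62 mice, Dbp was the most abundant of the 10 genes, at 78.5 ± 38.1 TPM (SD, n = 62), followed by Nr1d2 at 69.6 ± 17.2 TPM and Nr1d1 at 66.0 ± 45.9 TPM. Per1 reached 32.3 ± 20.1 TPM, Per2 15.6 ± 9.34 TPM, Per3 12.9 ± 5.59 TPM and Cry1 9.25 ± 3.47 TPM. Bhlhe41 was at 7.69 ± 2.80 TPM and Arntl at 5.56 ± 6.04 TPM, while Npas2 was at 0.428 ± 0.358 TPM and reached 1 TPM in 6 mice. Neighbours in this order of levels differed by less than the larger of their SDs, though not in every pair by less than the smaller. All 10 genes passed the filter for testing, which asked for 1 TPM or more in 5 or more mice, Npas2 by a narrow margin.

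The clock genes varied strongly between mice of one condition. Their median SD within conditions was 0.79 on the log2 scale, against 0.33 over all tested genes, and 6 of the 10 varied more than 90% of tested genes did. Arntl varied most, with an SD of 1.19, which exceeds that of 98.5% of tested genes, and Npas2 least, with 0.31. The SD of Npas2 is understated on this scale, because its levels lie near 0. In cachectic mice at 2 weeks, for example, Npas2 ran from 0.0347 to 1.49 TPM. In control mice at 4 weeks, Arntl was at 19.0, 18.6, 2.13, 1.37 and 1.24 TPM, and Nr1d1 in the same mice, in the same order, was at 121, 106, 58.6, 19.3 and 20.3 TPM. The 2 control mice with abundant Arntl were also the 2 with the most Nr1d1, and in Arntl they stood far from the other 3. Per2 in these control mice was at 1.72, 2.99, 21.7, 22.9 and 26.1 TPM, low in the same 2 mice and high in the other 3. When the means of the 12 conditions were ordered, none of the 11 neighbouring pairs differed by more than the larger of their SDs in 9 of the genes, and 1 pair did in Npas2. The highest condition mean of Dbp, 106 ± 9.54 TPM (SD, n = 5) in non-cachectic mice at 6 weeks, stood against the lowest, 37.9 ± 24.6 TPM (SD, n = 5) in cachectic mice of that week. For Nr1d1 the range was from 27.3 ± 18.1 TPM (SD, n = 5) in cachectic mice at 6 weeks to 108 ± 31.1 TPM (SD, n = 5) in control mice at 8 weeks. Bhlhe41 was lowest in cachectic mice at 8 weeks, at 4.32 ± 1.75 TPM (SD, n = 7), and highest in non-cachectic mice at 6 weeks, at 10.4 ± 1.89 TPM (SD, n = 5). Per1, by contrast, had its highest mean in cachectic mice at 8 weeks, at 53.5 ± 31.4 TPM (SD, n = 7), and its lowest in cachectic mice at 2 weeks, at 13.3 ± 12.8 TPM (SD, n = 5). The highest means of Per2 and Cry1 were in cachectic mice at 6 weeks, at 20.6 ± 5.00 TPM (SD, n = 5) and 14.2 ± 2.71 TPM (SD, n = 5), and that of Per3 was in cachectic mice at 4 weeks, at 16.5 ± 4.18 TPM (SD, n = 5). Nr1d2 was highest in non-cachectic mice at 6 weeks, at 79.9 ± 6.80 TPM (SD, n = 5). Arntl and Npas2 were lowest in non-cachectic mice at 2 weeks, with means of 0.911 and 0.156 TPM, and highest in control mice at 8 weeks for Arntl (9.32 TPM) and in cachectic mice at 6 weeks for Npas2 (0.712 TPM). The condition with the lowest mean was cachectic mice at 2 weeks for Per1, Per2, Per3, Cry1 and Nr1d2, a condition with 2 libraries of few genes and 1 rich in liver transcripts.

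**Figure D1:**
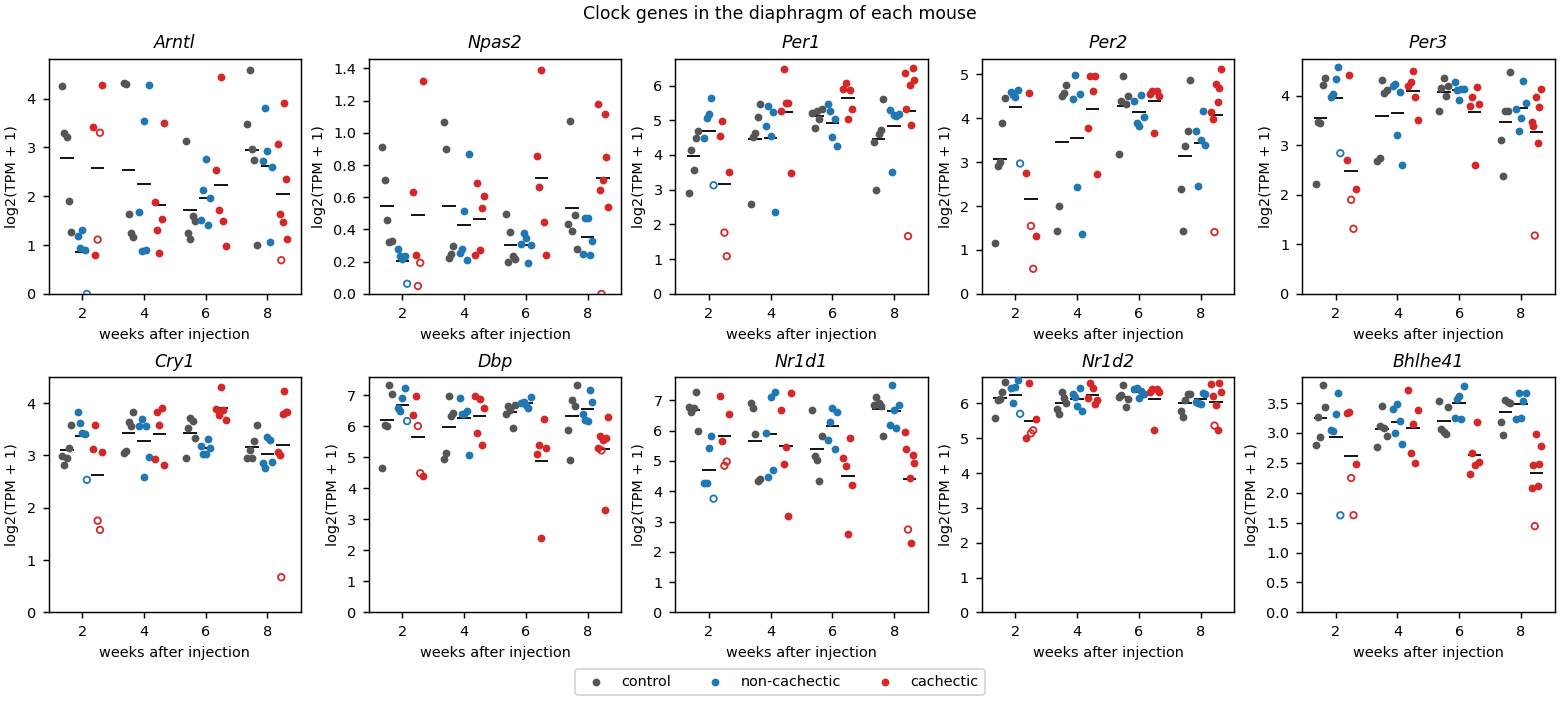
Level of each clock gene in every mouse, as log2(TPM + 1) on the vertical axis and weeks after injection on the horizontal axis. Colors mark the groups, black bars the condition means, and open circles the 4 libraries with few genes. Nr1d1 and Bhlhe41 in cachectic mice at 8 weeks lie below nearly all control and non-cachectic mice of that week.

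Cachectic mice were set against control and against non-cachectic mice of the same week, which asks whether the clock genes differ between these groups. Whether they differ with the non-cachectic melanoma is asked by setting non-cachectic against control mice. The 2 sets of comparisons with cachectic mice use the same cachectic mice, so they are not independent, and p-values were adjusted over all 13578 genes with limma. At 8 weeks 2 of the 10 genes, Nr1d1 and Bhlhe41, were lower in cachectic than in control mice and 0 were higher, beside 8.12% of all tested genes lower, 6.65% higher and 14.8% in either direction. Their median log2 difference was -0.08, against -0.09 over all genes. Nr1d1 and Bhlhe41 were also the 2 genes lower against non-cachectic mice at 8 weeks, with 0 higher, beside 6.19% of all genes lower, 6.75% higher and 12.9% in either direction (medians -0.28 and -0.08). Dbp and Bhlhe41 were below their non-cachectic levels at 6 weeks, and no clock gene was above, beside 1.57% of all genes lower, 4.28% higher and 5.85% in either direction (medians 0.03 and 0.14). Against control mice at 6 weeks limma called 0 of the 10, beside 5.62% of all genes higher, 1.17% lower and 6.79% in either direction (medians 0.03 and 0.17). An unadjusted p under 0.05 was seen for 3 genes there, and Dunn's test called 0, with 2 at an unadjusted p under 0.05. Leaving out cachectic replicate 3 at 6 weeks took the count against non-cachectic mice from 2 to 0, beside 5.26% of all genes, and leaving out cachectic replicate 4 took that against control mice from 0 to 1, beside 4.95%. Scaling by median ratios gave 1587 genes higher and 1675 lower than in control mice at 8 weeks, in place of 903 and 1102, and quantile normalization gave 1479 and 1952. Relative to non-cachectic mice at 8 weeks, 917 higher and 840 lower became 1394 and 1538 with the former and 1365 and 1663 with the latter. Shares of all genes at an unadjusted p under 0.05, or called by Dunn's test, are not given here for any comparison. The number of clock genes called, or at an unadjusted p under 0.05, is not a result about the 10 genes as a set.

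At 4 weeks limma called 0 clock genes against control mice, beside 0.0221% of all genes (medians 0.13 and 0.04), and 0 against non-cachectic mice, beside 0.0295% (medians 0.09 and 0.06). Unadjusted p-values under 0.05 numbered 0 in both, by limma and by Dunn's test, and Dunn's test called 0 in both. At 2 weeks 1 clock gene, Nr1d2, was lower in cachectic than in control mice, beside 27.8% of all genes lower and 29.3% in either direction, and the median difference was -0.64, against -0.42 over all genes. Against non-cachectic mice at 2 weeks the test called 0 clock genes, with 0% of all genes called (medians -0.75 and -0.20), 6 clock genes at an unadjusted p under 0.05, and by Dunn's test 0 called and 4 at an unadjusted p under 0.05. The 0% is for adjusted p, and without the share of all genes at an unadjusted p the 6 and 4 are not results about the clock genes. Leaving out cachectic replicate 3 at 2 weeks took the 1 gene against control mice to 0, beside 1.24% of all genes. Leaving out cachectic replicate 2 took it to 3, beside 57.0%, and took the 0 against non-cachectic mice to 3, beside 3.42%. Scaling by median ratios brought the median of all genes at 2 weeks from -0.42 to -0.06, with 1166 genes higher and 1209 lower in place of 192 and 3781, and quantile normalization gave 1549 higher and 627 lower. For the cachectic and control mice at 6 weeks the median moved from 0.17 to 0.01, with 471 higher and 540 lower in place of 763 and 159, or 530 and 729 after quantile normalization. Against non-cachectic mice at 6 weeks the median moved from 0.14 to 0.01, and 581 higher and 213 lower became 469 and 572, or 512 and 743. Only at 2 weeks did control and non-cachectic mice differ in many genes, 4.43% of those tested, and 0 clock genes were among them (medians 0.18 and -0.18), with 2 at an unadjusted p under 0.05 and 0 by Dunn's test, or 3 by that test at an unadjusted p under 0.05, and limma called 1 without non-cachectic replicate 4, beside 4.69% of all genes. Of the genes called in that comparison 2 were higher and 600 lower, which became 14 and 557 after median-ratio scaling, or 100 and 502 after quantile normalization. In the same comparison 6 of 10 liver markers were lower and 0 higher, with a median of -4.46, and 3 of the 5 control libraries are among those rich in liver transcripts. In non-cachectic against control mice at 4, 6 and 8 weeks, limma called 0 clock genes and 0% of all genes, with 0 clock genes at an unadjusted p under 0.05 by limma or Dunn's test in each week. A p that misses the threshold does not show that the values did not differ.

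**Figure D2:**
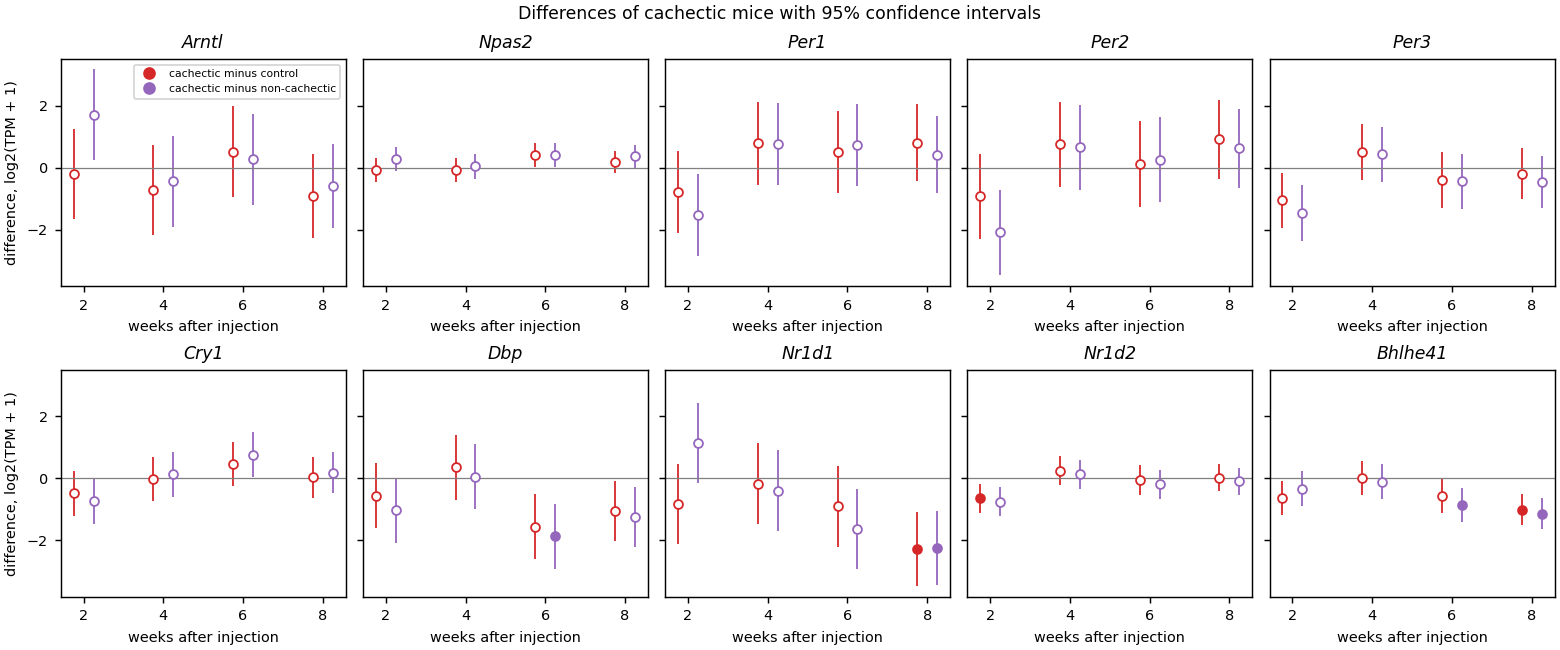
Differences of cachectic mice from control mice and from non-cachectic mice of the same week, on the log2(TPM + 1) scale, against weeks after injection. Bars are 95% confidence intervals and filled circles have an adjusted p under 0.05, which Nr1d1 and Bhlhe41 reach at 8 weeks, Dbp and Bhlhe41 at 6 weeks and Nr1d2 at 2 weeks.

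Among the activators, Arntl codes for BMAL1, the partner that both CLOCK and NPAS2 require. At 8 weeks Arntl was at 10.2, 22.9, 6.80, 5.68 and 1.00 TPM in control mice and at 5.58, 12.98, 6.66, 1.09 and 5.07 TPM in non-cachectic mice. In cachectic mice it ranged from 0.614 to 14.1 TPM, with a median of 2.12 TPM. Every group held mice near 1 TPM and mice above 10 TPM, so the groups overlapped over nearly their whole range. The log2 difference of cachectic from control mice was -0.92 ± 0.68 (SE, 95% interval -2.27 to 0.44, limma adjusted p = 0.415), and from non-cachectic mice -0.59 ± 0.68 (adjusted p = 0.650). At 6 weeks the corresponding differences of Arntl were 0.52 and 0.28 (adjusted p = 0.737 and 0.879). Of the differences of cachectic mice, that of Arntl was largest in size at 2 weeks against non-cachectic mice, 1.71 ± 0.73 (adjusted p = 0.367), where the 5 non-cachectic mice had at most 1.49 TPM and 1 of them, a library with few genes, is listed at 0. Npas2, a paralog of Clock that can take its place, ranged from 0 to 1.62 TPM. At 8 weeks it was at 0.353, 1.10, 0.309, 0.404 and 0.213 TPM in control and at 0.187, 0.386, 0.388, 0.184 and 0.257 TPM in non-cachectic mice, and ranged from 0 to 1.27 TPM, with a median of 0.635 TPM in cachectic mice. 6 of 7 cachectic mice were above every non-cachectic mouse, and the remaining one, the library with few genes, is listed at 0. The log2 difference was 0.37 ± 0.18 (adjusted p = 0.188) against non-cachectic and 0.19 ± 0.18 (adjusted p = 0.547) against control mice. Without the libraries with few genes the former was 0.49 (adjusted p = 0.0233), in a range of adjusted p from 0.00125 to 0.389 over 11 alternatives.

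The period genes Per1, Per2 and Per3 and the cryptochrome gene Cry1 code for the repressors that close the loop. At 8 weeks Per1 was at 19.8, 6.89, 23.2, 25.3 and 47.8 TPM in control and at 38.4, 10.3, 34.6, 33.5 and 35.0 TPM in non-cachectic mice. In cachectic mice Per1 ranged from 2.17 to 88.9 TPM, with a median of 64.0 TPM. 4 of 7 cachectic mice were above every control mouse and 5 were above every non-cachectic mouse, while 1, the library with few genes, was below them all. The log2 difference of Per1 was 0.81 ± 0.61 against control (SE, adjusted p = 0.427) and 0.42 ± 0.61 against non-cachectic mice (adjusted p = 0.731). Without the libraries with few genes it was 1.42 against control mice (adjusted p = 0.0159), and over 11 alternatives the adjusted p ran from 0.0153 to 0.718, with 2 past the threshold. Against non-cachectic mice it was 1.02 without them (adjusted p = 0.0874, in a range of 0.0874 to 0.998, with 0 past). Per2 at 8 weeks was at 4.22, 1.70, 9.24, 12.04 and 28.3 TPM in control and at 12.1, 4.52, 10.4, 16.8 and 9.45 TPM in non-cachectic mice, and ranged from 1.65 to 33.7 TPM, with a median of 19.8 TPM in cachectic mice. 6 of the 7 cachectic mice were above 4 of the 5 control mice, but only 1 exceeded the highest of them. Its log2 difference was 0.92 ± 0.64 against control (adjusted p = 0.379) and 0.62 ± 0.64 against non-cachectic mice (adjusted p = 0.599). Leaving out the libraries with few genes gave 1.36 and 1.07 for Per2 (adjusted p = 0.0706 and 0.169, in ranges of 0.0391 to 0.745 and 0.105 to 0.822).

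Per3 differed by -0.19 ± 0.41 from control mice at 8 weeks and by -0.40 ± 0.45 at 6 weeks on the log2 scale (SE, limma adjusted p = 0.820 and 0.664). The sign at 8 weeks depended on the library with few genes, since the difference was 0.16 without those libraries (adjusted p = 0.789, in a range of 0.383 to 0.923). Its level in cachectic mice at 8 weeks was 10.3 ± 5.09 TPM (SD, n = 7), against 11.4 ± 6.39 TPM (SD, n = 5) in control mice. Cry1 at 6 weeks was at 13.8, 12.7, 18.8, 13.7 and 11.9 TPM in cachectic mice, at 6.75, 10.5, 12.1, 11.6 and 9.12 TPM in control and at 8.08, 7.16, 7.13, 8.95 and 7.86 TPM in non-cachectic mice. Each of the 5 cachectic mice was above every non-cachectic mouse, and 4 were above every control mouse. The log2 difference of Cry1 was 0.77 ± 0.36 against non-cachectic (adjusted p = 0.238) and 0.47 ± 0.36 against control mice (adjusted p = 0.497), so the separation did not pass the test over all genes. Over the 11 alternatives the adjusted p against non-cachectic mice ran from 0.000719 to 0.362, with 3 past the threshold. At 8 weeks the difference of Cry1 from control mice was 0.03 ± 0.33 (adjusted p = 0.965), and cachectic mice ranged from 0.592 to 17.7 TPM, with a median of 12.9 TPM, the lowest being the library with few genes. Without the libraries with few genes Cry1 differed by 0.46 from control mice (adjusted p = 0.0757) and by 0.60 from non-cachectic mice (adjusted p = 0.0186), in place of 0.03 and 0.18. Over the alternatives the adjusted p ran from 0.00388 to 1.00 with 1 past the threshold, and from 0.000636 to 0.929 with 2 past.

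Nr1d1 codes for REV-ERB alpha, a heme-binding repressor of Arntl that also acts on metabolic genes of muscle. At 8 weeks Nr1d1 was at 115, 139, 120.4, 111 and 55.9 TPM in control mice and at 71.3, 179.7, 102, 67.6 and 115 TPM in non-cachectic mice. In cachectic mice it ranged from 3.86 to 60.7 TPM, with a median of 29.4 TPM. All 7 cachectic mice were below every non-cachectic mouse and 6 were below every control mouse, the groups touching only at the lowest control value. Nr1d1 was lower in cachectic mice, whose mean was 28.2 ± 20.2 TPM (SD, n = 7), against 108 ± 31.1 TPM (SD, n = 5) for control and 107 ± 45.3 TPM (SD, n = 5) for non-cachectic mice. The log2 difference was -2.29 ± 0.60 against control (SE, 95% interval -3.49 to -1.09, limma adjusted p = 0.00503). Against non-cachectic mice it was -2.25 ± 0.60 (95% interval -3.45 to -1.05, adjusted p = 0.00674). The difference from control mice stayed past the threshold under all 11 alternatives and without each of the 12 mice in turn, and without the library with few genes it was -2.01 (adjusted p = 0.00714, in a range of 0.000722 to 0.0477). Against non-cachectic mice it missed the threshold with Dunn's test and with a fit of only the groups compared (adjusted p = 0.0623 and 0.0691, in a range of 0.00207 to 0.0691). In whole tissue, fewer cells of a type and less RNA in each cell cannot be told apart, for this or any other difference.

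At 6 weeks Nr1d1 was at 33.5, 27.5, 5.05, 53.3 and 17.3 TPM in cachectic, 101, 34.8, 31.8, 19.2 and 56.0 TPM in control and 50.2, 76.9, 107, 41.1 and 97.2 TPM in non-cachectic mice. 4 of 5 cachectic mice were below every non-cachectic mouse, whereas cachectic and control mice overlapped in most of their range. The log2 difference of Nr1d1 was -1.65 ± 0.65 against non-cachectic mice (adjusted p = 0.129) and -0.91 ± 0.65 against control mice (adjusted p = 0.461), past the threshold under 3 of 11 alternatives (adjusted p from 0.0275 to 0.190) and under 0 (from 0.247 to 0.557). Nr1d1 lies at chr11:98767932-98775333 on the minus strand of GRCm38, and 1075 of its bases overlap Thra (chr11:98740638-98769006, plus strand), which codes for a thyroid hormone receptor. Whether reads were counted by strand is not given in the sources used here, so reads of the 2 genes may not be told apart and the values of Nr1d1 carry that uncertainty. Thra itself was at a mean of 25.3 TPM in cachectic and 39.1 TPM in control mice at 8 weeks, a log2 difference of -0.83 (adjusted p = 0.0716). Its log2 difference from non-cachectic mice was -0.81 (adjusted p = 0.0854).

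Nr1d2 codes for REV-ERB beta, which shares the role of REV-ERB alpha, and its pattern over the conditions was another one. At 8 weeks its mean was 68.4 ± 23.6 TPM (SD, n = 7) for cachectic mice against 64.4 ± 12.98 TPM (SD, n = 5) for controls, a log2 difference of 0.03 ± 0.22 (SE, 95% interval -0.41 to 0.47, limma adjusted p = 0.958). At 2 weeks Nr1d2 was at 31.2, 95.4, 34.3, 36.5 and 46.2 TPM in cachectic and at 46.5, 68.04, 69.1, 79.5 and 96.8 TPM in control mice. 4 of 5 cachectic mice were below every control mouse and the other was near the top of the control range. The log2 difference was -0.64 ± 0.24 (adjusted p = 0.0382). It was -0.43 without the libraries with few genes (adjusted p = 0.451) and -0.22 without those rich in liver transcripts (adjusted p = 0.632), in a range of 0.0186 to 0.998 over 11 alternatives, 8 of which missed the threshold. Leaving out 1 mouse in turn gave from -0.92 (without cachectic replicate 2) to -0.52 (without cachectic replicate 1), missing the threshold in 7 of 10 fits, and with 29.3% of all genes called in that week the call says little about Nr1d2.

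Dbp codes for a PAR bZIP activator that binds D-boxes and is a direct output of the BMAL1 complex. At 6 weeks Dbp was at 33.0, 40.7, 4.25, 73.3 and 38.2 TPM in cachectic mice, at 82.8, 100.2, 90.8, 60.9 and 103 TPM in control mice and at 106, 109, 102, 95.1 and 121 TPM in non-cachectic mice. All 5 cachectic mice were below every non-cachectic mouse, and 4 were below every control mouse, with 1 cachectic mouse far below the others. Dbp was lower than in non-cachectic mice, with a log2 difference of -1.87 ± 0.52 (SE, 95% interval -2.92 to -0.82, limma adjusted p = 0.02) and means of 37.9 ± 24.6 TPM (SD, n = 5) and 106 ± 9.54 TPM (SD, n = 5). Leaving out cachectic replicate 3, at 4.25 TPM, gave -1.25 (adjusted p = 0.143), and by Dunn's test the adjusted p was 0.117, in a range of 0.00132 to 0.117. Against control mice the difference was -1.57 ± 0.52 (95% interval -2.62 to -0.52, adjusted p = 0.0551), and 6 of 11 alternatives put it past the threshold, both scalings among them (adjusted p from 0.00468 to 0.133). At 8 weeks Dbp was at 58.2, 28.9, 115, 98.7 and 159 TPM in control and 83.6, 71.9, 70.9, 143 and 108 TPM in non-cachectic mice, and ranged from 8.76 to 77.8 TPM, with a median of 45.7 TPM in cachectic mice. 6 of 7 cachectic mice were below every non-cachectic mouse, but only 1 was below the lowest control mouse. Its log2 difference at 8 weeks was -1.26 ± 0.48 against non-cachectic mice (adjusted p = 0.0757) and -1.04 ± 0.48 against control mice (adjusted p = 0.148), neither past the threshold. Without the libraries with few genes they were -1.25 (adjusted p = 0.0494) and -1.03 (adjusted p = 0.107), and over the alternatives the adjusted p ran from 0.00120 to 0.154 with 5 past the threshold and from 0.00184 to 0.342 with 1 past.

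Bhlhe41 codes for DEC2, a basic helix-loop-helix repressor that competes for E-boxes. At 8 weeks Bhlhe41 was at 8.13, 6.80, 10.7, 10.4 and 10.4 TPM in control and at 8.45, 11.7, 8.56, 10.7 and 11.8 TPM in non-cachectic mice. In cachectic mice it ranged from 1.72 to 6.92 TPM, with a median of 4.55 TPM. All 7 cachectic mice were below every non-cachectic mouse, and 6 were below every control mouse, the other one lying just above the lowest control value. Bhlhe41 was lower in cachectic mice, with a difference of -1.01 ± 0.25 against control (SE, 95% interval -1.52 to -0.50, limma adjusted p = 0.00364) and -1.14 ± 0.25 against non-cachectic mice (95% interval -1.65 to -0.63, adjusted p = 0.00112) on the log2 scale. Both differences stayed past the threshold under all 11 alternatives (adjusted p from 0.000375 to 0.0386 and from 8.74e-05 to 0.0296) and without each of the 12 mice. At 6 weeks Bhlhe41 was at 3.99, 5.37, 4.55, 8.07 and 4.69 TPM in cachectic, 10.6, 7.37, 7.07, 6.91 and 9.79 TPM in control and 8.57, 10.8, 11.3, 8.46 and 12.9 TPM in non-cachectic mice. Each of the 5 cachectic mice was again below every non-cachectic mouse, and 4 were below every control mouse. The log2 difference was -0.87 ± 0.28 against non-cachectic (adjusted p = 0.0477) and -0.57 ± 0.28 against control mice (adjusted p = 0.225). The former is close to the threshold, missing it under 6 of 11 alternatives (adjusted p from 0.000394 to 0.117) and in 9 of the 10 fits that left out 1 mouse. The latter passed under 5 of 11 alternatives (adjusted p from 0.0151 to 0.290).

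Whether the difference of cachectic from control mice itself differed between weeks was tested with limma. Between 4 and 6 weeks the test called 0 clock genes and 0% of all genes, with 1 clock gene, Dbp, at an unadjusted p under 0.05. Dbp had a log2 difference of differences of -1.93 ± 0.74 (SE, adjusted p = 0.9999). Between 6 and 8 weeks it called 0 clock genes and 0% of all genes, with 0 clock genes at an unadjusted p under 0.05. From 4 to 8 weeks it called 0 clock genes and 0% of all genes, with 2 clock genes, Nr1d1 and Bhlhe41, at an unadjusted p under 0.05. Their differences of differences were -2.12 ± 0.88 and -1.02 ± 0.38 (adjusted p = 0.552 and 0.511). The differences of Nr1d1 and Bhlhe41 at 8 weeks are not shown by this test to depart from those at 4 or 6 weeks, although with array weights the count went from 0 to 2 between 4 and 8 weeks and from 0 to 1 between 4 and 6 weeks, beside 7.77% and 16.2% of all genes. Dunn's test was not run on differences between weeks.

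Among the 4 weeks of one group, limma's F test called 0 clock genes in control mice, beside 3.03% of all genes, and 0 in non-cachectic mice, beside 0%. Unadjusted p-values under 0.05 numbered 0 in control and 1 in non-cachectic mice. In cachectic mice 5 of the 10 clock genes changed over the weeks, beside 52.7% of all genes. These were Per1, Per2, Per3, Cry1 and Nr1d2, with adjusted p-values of 0.00810, 0.0174, 0.0177, 0.0210 and 0.0307, and each had its lowest mean at 2 weeks. Per1, for example, had condition means of 13.3, 44.7, 50.6 and 53.5 TPM at 2, 4, 6 and 8 weeks, and Per2 of 6.495, 20.4, 20.6 and 19.7 TPM. The count went to 0 with array weights and with only the groups compared, beside 3.06% and 1.39% of all genes, and to 3 with quantile normalization, beside 31.9%. Without the libraries with few genes, of which 2 are among the cachectic mice at 2 weeks, 1 clock gene was called, beside 34.9% of all genes. Without cachectic replicate 3 at 2 weeks alone 0 were, beside 20.3%, whereas 8 were without cachectic replicate 4 at 4 weeks, beside 50.7%.

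Pairs of clock genes were compared in their mouse to mouse variation within conditions. Deviations from condition means of log2(TPM + 1) were correlated over 62 mice for the 45 pairs of genes, with permutation within conditions and adjustment over the 45 pairs. 29 pairs had an adjusted permutation p under 0.05, of which 22 were positive and 7 negative, and 33 pairs did by Spearman's rho, 28 by both. The share of pairs past the threshold among other genes is not given here, and over 8377 genes the median r with Arntl was 0.15. The count is therefore not a result about clock genes in particular. All 29 pairs kept their sign without the 2 mice farthest from the median of the first gene, and 28 had the same sign in control, non-cachectic and cachectic mice taken separately. Without the libraries with few genes 1 of the 29 turned its sign, Cry1 with Bhlhe41, from r = 0.41 (rho = 0.20, permutation p = 0.0166 and 0.203, adjusted 0.0276 and 0.246) to -0.18. Among the pairs past the threshold only by rho, Cry1 and Nr1d1 moved from r = -0.14 (rho = -0.34, permutation p = 0.445 and 0.0210, adjusted 0.527 and 0.0286) to -0.81. Arntl and Npas2, the 2 activators, varied together across mice, with r = 0.82 and rho = 0.82 (permutation p = 1e-05 for both, the smallest these permutations can give, adjusted p = 3e-05), and r = 0.79 without the 2 farthest mice. Arntl and Dbp varied in opposite directions, with r = -0.71 and rho = -0.66 (permutation p = 1e-05 for both, adjusted 3e-05), and r = -0.65 without the 2 farthest mice. Within groups their r was -0.86 in control (n = 20), -0.55 in non-cachectic (n = 20) and -0.68 in cachectic mice (n = 22). Arntl and Per2 were likewise opposed, at r = -0.66 and rho = -0.68 (permutation p = 1e-05 for both, adjusted 3e-05), with r = -0.65 without the 2 farthest mice and -0.90 without the libraries with few genes. Their r was -0.98 in control, -0.75 in non-cachectic and -0.30 in cachectic mice. Whether these values of r differ between groups was not tested.

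The closest relation over all 62 mice was between Per2 and Per3, at r = 0.93 and rho = 0.89 (permutation p = 1e-05 for both, adjusted 3e-05), and r = 0.92 without the 2 farthest mice. Without the libraries with few genes r was 0.917 for Per2 and Per3 and -0.921 for Arntl and Per3. Per1 and Per3 had r = 0.85 and rho = 0.80, and Per3 and Nr1d2 had r = 0.80 and rho = 0.80, each with the same permutation p. Per1, Per2, Per3 and Cry1 were positively related in each of their pairs, but r of Cry1 with Per1 went from 0.74 to 0.41 without the libraries with few genes, and r of Cry1 with Per3 from 0.69 to 0.45. The paralogs Nr1d1 and Nr1d2 had r = 0.25 and rho = 0.12 (permutation p = 0.102 and 0.393, adjusted 0.131 and 0.421), and 0.05 without the 2 farthest mice. Within groups their r was -0.29 in control, -0.10 in non-cachectic and 0.53 in cachectic mice. Nr1d1 and Arntl had r = 0.42 and rho = 0.50 (permutation p = 0.00364 and 0.0004, adjusted 0.00630 and 0.000818), and 0.56 without the 2 farthest mice. Within groups the r of Nr1d1 with Arntl was 0.75 in control, 0.84 in non-cachectic and 0.06 in cachectic mice. Whether r differs between these 2 pairs was not tested. Nr1d1 and Bhlhe41, the 2 genes that were lower in cachectic mice at 8 weeks, had r = 0.49 and rho = 0.47 (permutation p = 0.00033 and 0.00077, adjusted 0.000675 and 0.00151), and 0.50 without the 2 farthest mice. Their r was 0.15 in control, 0.50 in non-cachectic and 0.60 in cachectic mice. Dbp and Bhlhe41 had r = 0.61 and rho = 0.71 (permutation p = 2e-05 and 1e-05, adjusted 5.62e-05 and 3e-05), and 0.68 without the 2 farthest mice.

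**Figure D3:**
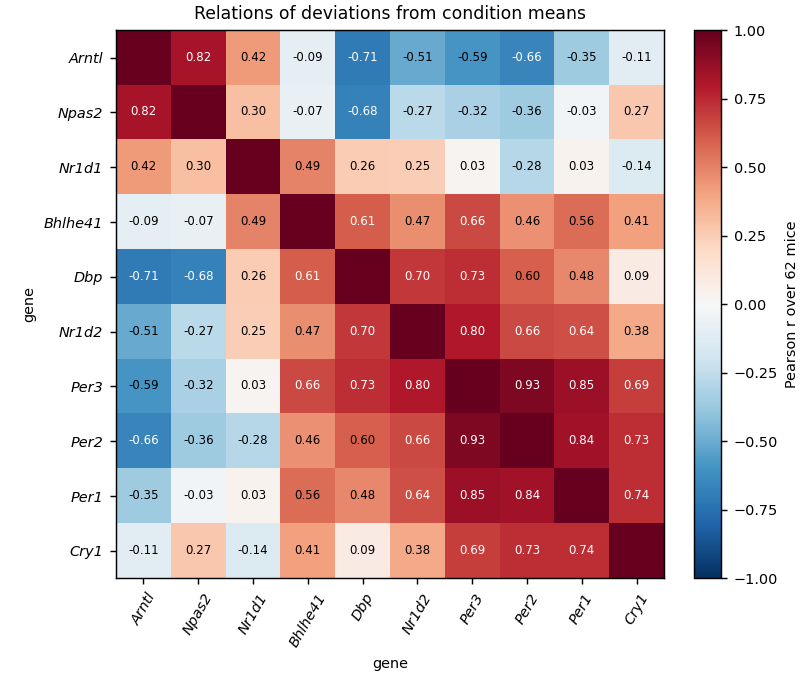
Pearson r between each pair of clock genes, over 62 mice, of the deviations from condition means of log2(TPM + 1). Red is positive and blue negative, with Arntl opposed to Dbp, Per2 and Per3, Npas2 opposed to Dbp, and the period genes and Cry1 positively related.

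**Figure D4:**
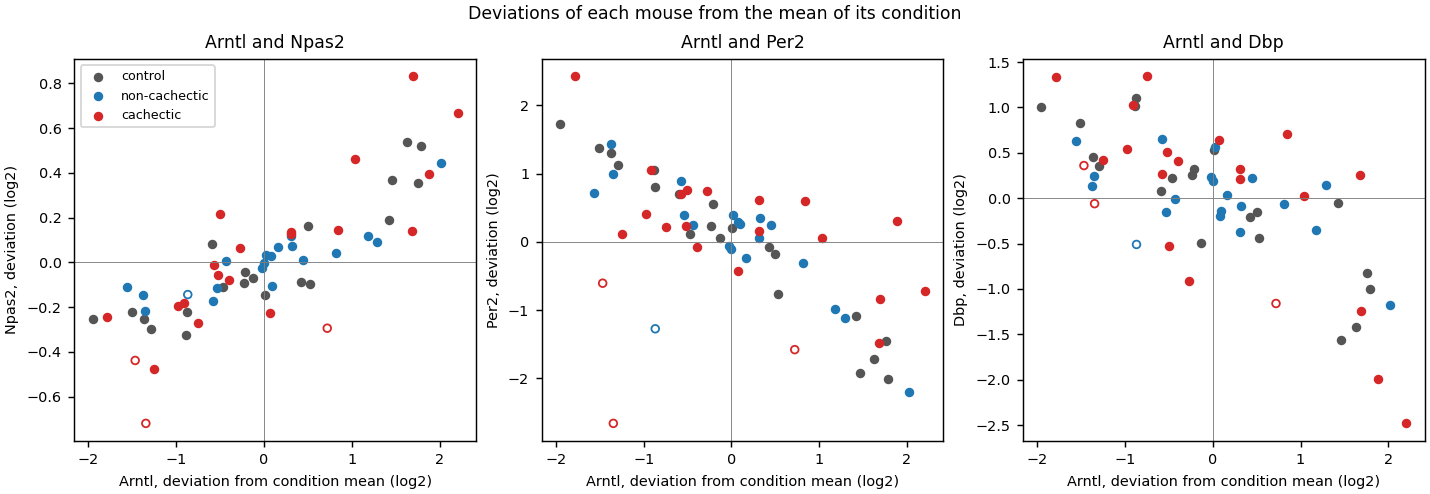
Deviation of each mouse from the mean of its condition, on the log2(TPM + 1) scale, for Arntl on the horizontal axis and Npas2, Per2 or Dbp on the vertical axis. Colors mark the groups and open circles the 4 libraries with few genes, 3 of which have both Arntl and Per2 below the mean of their condition.

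The differences between groups were also fitted with the Arntl value of each mouse as a covariate, a choice made after seeing the data. At 8 weeks against control mice 4 clock genes then passed, in place of 2, beside 12.4% of all genes in that fit: Dbp at -1.51 (adjusted p = 0.00184), Npas2 at 0.38 (0.0146), Nr1d1 at -1.95 (0.0124) and Bhlhe41 at -1.04 (0.00382), each a log2 difference. Against non-cachectic mice at 8 weeks the same 4 genes passed, beside 11.97% of all genes, with Dbp at -1.56 (adjusted p = 0.00120) and Npas2 at 0.49 (0.00125). The ranges of adjusted p over all alternatives are those given with each gene. That of Npas2 against control mice at 8 weeks ran from 0.0146 to 0.767. At 6 weeks Dbp alone passed in both comparisons, at -1.31 against control mice (adjusted p = 0.0223) and at -1.73 against non-cachectic mice (adjusted p = 0.00205), beside 6.96% and 6.05% of all genes. A covariate that is itself a clock gene takes out shared variation of any source, and which source that is was not tested.

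Over the same 62 mice, the genes with patterns most like Arntl were sought among 8377 tested genes with a mean of at least 5 TPM, by Pearson r of the deviations from condition means. The highest were Leo1 (0.87), Slc41a3 (0.82), Asb12 (0.79), Relt (0.76) and Ppp1r27 (0.74), and the lowest were Tspan4 (-0.70), Coq10b (-0.68), Hlf (-0.67), Tcap (-0.66) and Ciart (-0.65), against a median r of 0.15 over the genes searched. Among the highest for Dbp were Ciart (0.83), Hlf (0.78), Tspan4 (0.70) and Tcap (0.68), and the lowest were Ppp1r3c (-0.64), Pnpla3 (-0.58), Ddit4l (-0.57), Lrrc30 (-0.55) and Ypel2 (-0.50), with a median of 0.11. These values of r are a description, without a test. Ciart, which codes for a circadian repressor, and Hlf, a PAR bZIP relative of Dbp, stood on opposite ends for Arntl and Dbp, as did Tspan4 and Tcap.

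A list of 16 other clock genes was examined, of which 14 were tested and the others were too low. At 6 weeks 2 were higher and 0 lower in cachectic than in control mice, beside 5.62% and 1.17% of all tested genes, with a median log2 difference of 0.44 against 0.17 over all genes. Of the same list at 8 weeks 2 were higher and 1 lower, beside 6.65% and 8.12% of all genes, with medians of 0.14 and -0.09. Nfil3 codes for E4BP4, a repressor that binds the D-boxes used by DBP. At 6 weeks it had a mean of 58.0 TPM in cachectic and 14.1 TPM in control mice, a log2 difference of 1.87 (limma adjusted p = 0.0159). At 8 weeks its means were 41.7 and 11.1 TPM, with a difference of 1.42 (adjusted p = 0.0330), and 6 of 7 cachectic mice were above every control mouse while the library with few genes was below them all. Timeless, a partner of the replication fork with a link to the clock, was higher than in control mice by 0.93 at 6 weeks (limma adjusted p = 0.00517) and by 0.59 at 8 weeks (adjusted p = 0.0425). Btrc, which codes for an F-box protein that marks PER proteins for breakdown, differed by -0.60 at 8 weeks (adjusted p = 0.0418), with all 7 cachectic mice below every control mouse. At 6 weeks Nfil3 and Timeless each missed the threshold under 1 of 11 alternatives, and Nfil3 in 2 of 10 fits leaving out 1 mouse. Of the calls at 8 weeks, Nfil3 missed the threshold under 4 of 11 alternatives, Timeless under 7 and Btrc under 5. Leaving out 1 mouse in turn lost them in 7, 10 and 7 of 12 fits, and Btrc moved to -0.39 without the library with few genes, where it was at 1.90 TPM. Relative to non-cachectic mice 3 genes of the list were higher at 6 weeks and 2 at 8 weeks, beside 4.28% and 6.75% of all genes, Nfil3 and Timeless in both, and 0 were lower. Against control mice at 2 and 4 weeks 0 of the list were called, beside 29.3% and 0.0221% of all genes (medians -0.56 and 0.37, against -0.42 and 0.04). Between non-cachectic and control mice limma called 0 of the list in each of the 4 weeks, beside 4.43% of all genes at 2 weeks and 0% at 4, 6 and 8 weeks.

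Of 12 genes listed as clock outputs in muscle and other tissues, all tested, 1 was higher and 0 lower in cachectic than in control mice at 6 weeks, beside 5.62% and 1.17% of all tested genes, with a median log2 difference of 0.07 against 0.17. At 8 weeks 1 was higher and 3 lower, beside 6.65% and 8.12% of all genes, with medians of -0.12 and -0.09. Nampt, the rate-limiting enzyme of NAD salvage, was higher than in control mice by 0.56 at 6 weeks (limma adjusted p = 0.0406) and by 0.56 at 8 weeks (adjusted p = 0.0131). However, Nampt missed the threshold under 4 and 3 of 11 alternatives, and at 6 weeks in 8 of 10 fits leaving out 1 mouse. At 8 weeks Alas1, the first enzyme of heme synthesis, had means of 26.6 TPM in cachectic and 58.2 TPM in control mice, a difference of -1.14 (adjusted p = 2.18e-05), with all 7 cachectic mice below every control mouse. Ucp3, a mitochondrial carrier, differed by -1.22 (adjusted p = 0.00548; from -1.35 to -0.62 over 11 alternatives, 1 of which missed the threshold) and Pdk4, a kinase that restrains pyruvate oxidation, by -1.24 (adjusted p = 0.0465), the latter missing the threshold under 5 of 11 alternatives and in 7 of 12 fits leaving out 1 mouse. Against non-cachectic mice 1 was higher and 0 lower at 6 weeks, beside 4.28% and 1.57% of all genes, and 1 higher and 3 lower at 8 weeks, beside 6.75% and 6.19%. Of 9 glucocorticoid targets, which were listed because glucocorticoids act on Per1 and other clock genes, 2 were above and 0 below their control level at 6 weeks in cachectic mice, with a median of 0.85 against 0.17. At 8 weeks 5 were higher and 0 lower, with medians of 0.93 and -0.09, and against non-cachectic mice 3 were higher and 0 lower in each of those weeks, beside the same shares of all genes as for the clock outputs. Fkbp5, a cochaperone of the glucocorticoid receptor, was higher than in control mice by 2.50 at 6 weeks (limma adjusted p = 0.0209) and by 2.51 at 8 weeks (adjusted p = 0.00502). Its means at 8 weeks were 95.2 TPM in cachectic and 10.5 TPM in control mice. Ddit4, an inhibitor of mTORC1, was higher than in control mice by 2.50 at 8 weeks (limma adjusted p = 0.00102). Of these calls at 8 weeks, Ddit4 missed the threshold under 0 of 11 alternatives and Fkbp5 under 2. Tsc22d3, Sgk1 and Errfi1 were the others called at 8 weeks, and Errfi1 also at 6 weeks. Tsc22d3 missed the threshold under 7 of 11 alternatives and in 10 of 12 fits leaving out 1 mouse, Sgk1 under 3 of 11 and Errfi1 under 2. At 6 weeks Errfi1 was lost under 1 alternative and in 6 of 10 fits leaving out 1 mouse, and Fkbp5 under 1 and in 2 of 10. At 2 weeks 2 clock outputs and 1 glucocorticoid target were lower than in control mice and 0 higher, beside 27.8% of all genes lower (medians -0.38 and -0.55, against -0.42). At 4 weeks 0 were called, beside 0.0221% of all genes (medians 0.14 and 0.27, against 0.04). What part these genes have in the levels of Per1, Nr1d1 or other clock genes was not tested. In both of these lists limma called 0 genes between non-cachectic and control mice in any week, beside 4.43% of all genes at 2 weeks and 0% at 4, 6 and 8 weeks.

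Markers of cell types also differed at 8 weeks, when Nr1d1 and Bhlhe41 were lower. Of 8 macrophage markers 4 were higher and 0 lower in cachectic than in control mice, beside 6.65% of all tested genes higher and 8.12% lower, and their summed level ran from 149 to 433 TPM (median 276) in the 7 cachectic and from 119.7 to 184 TPM (median 143) in the 5 control mice, C1qa being the most abundant. Of 5 neutrophil markers 3 were tested and 2 were higher, with sums from 8.45 to 71.5 TPM (median 27.2) and from 3.81 to 14.0 TPM (median 9.49), led by S100a9. Of 6 fibroblast markers 1 was higher and 3 were lower, with sums from 678 to 1654 TPM (median 852) and from 523 to 1042 TPM (median 978), led by Dcn. Of 6 endothelial markers 1 was lower, with sums from 47.0 to 241 TPM (median 222) and from 198 to 254 TPM (median 232), led by Cdh5, the lowest being the library with few genes. Of 10 skeletal muscle markers 1 was lower, with sums from 40885 to 95312 TPM (median 82026) and from 63459.9 to 77213 TPM (median 71443). For 10 liver markers, led by Alb, limma called 0, with sums from 52.1 to 2177 TPM (median 130.2) and from 16.5 to 406 TPM (median 65.5). It also called 0 of 6 adipocyte markers, led by Cfd, with sums from 274 to 2436 TPM (median 577) and from 113 to 639.6 TPM (median 169), and 0 of 5 mesothelium markers, led by Upk3b, with sums from 25.4 to 151 TPM (median 82.9) and from 42.7 to 163 TPM (median 115). At 6 weeks 2 muscle, 2 macrophage and 1 fibroblast markers were higher and 1 muscle marker was lower than in control mice, beside 5.62% and 1.17% of all genes. Relative to non-cachectic mice at 6 weeks 2 muscle, 1 macrophage and 1 fibroblast markers were higher and 1 muscle and 1 fibroblast markers lower, beside 4.28% and 1.57% of all genes. At 8 weeks 4 macrophage and 2 neutrophil markers were higher than in non-cachectic mice and 1 muscle, 2 fibroblast, 1 endothelial and 1 mesothelium markers lower, beside 6.75% and 6.19%. None of the markers was at 0 in every mouse. The part of these cell types in the lower Nr1d1 and Bhlhe41 was not tested.

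The 10 genes lie on several chromosomes of GRCm38, with Per2 (chr1:91415982-91459324, minus strand) and Npas2 (chr1:39193731-39363236, plus strand) on chromosome 1, and Dbp (chr7:45705088-45710203, plus strand) and Arntl (chr7:113207465-113314126, plus strand) on chromosome 7. Per1 (chr11:69095217-69109960, plus strand) shares chromosome 11 with Nr1d1, and Per3 (chr4:151003652-151044665, minus strand), Bhlhe41 (chr6:145858243-145865558, minus strand), Cry1 (chr10:85131700-85185064, minus strand) and Nr1d2 (chr14:18204054-18239127, minus strand) are each alone among the 10 on theirs. Because the period genes varied together and opposite to Arntl, promoters were searched on both strands, in the 250 bases before the transcription start, for motifs that the clock's factors are known to bind. RefSeq promoters of GRCm38.p6 matched 9 of the genes, with 11 promoters in all, the gene not matched being Per2. The E-box CACGTG was in 3 of the 11 promoters, 1 each of Per1, Cry1 and Bhlhe41, against 6.02% of 32851 mouse promoters of the same length. Its variant CACGTT was in 2 of the 11, those of Cry1 and Nr1d1, against 3.85% of all promoters. A D-box, TTATGTAA, was in 1 of the 11, that of Per3, with 2 matches, against 0.819% of all. Its variant TTACGTAA was in 0 of the 11, against 0.113%. The core of the element bound by ROR and REV-ERB, TAGGTCA, was in 0, against 2.23%, as was the cAMP response element TGACGTCA, against 1.55%. A match is a description of the letters and not a binding site, and no match says only that these letters are not in this window.

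The promoters that hold a match are printed 5′ to 3′ on the strand of the gene, without the bases that fall in an annotated exon, with the matched letters in capitals: the E-box in Per1, Cry1 and Bhlhe41, its variant (read as AACGTG) in Cry1 and Nr1d1, and the D-box in Per3. The genes shown are those with a match. Among them, Nr1d1 and Bhlhe41 were lower in cachectic mice at 8 weeks, and Per1, Per3 and Cry1 varied with each other. Nr1d2 and Dbp also varied with Per3 (r = 0.80 and 0.73) but had no match. The stretches are Nr1d1 chr11:98775378-98775627 (minus strand), Bhlhe41 chr6:145865559-145865670 (minus), Per1 chr11:69098699-69098947 (plus), Per3 chr4:151044666-151044915 (minus) and Cry1 chr10:85185065-85185304 (minus). That of Per1 precedes a start that lies inside the gene as placed by the coordinates given for it.
Nr1d1: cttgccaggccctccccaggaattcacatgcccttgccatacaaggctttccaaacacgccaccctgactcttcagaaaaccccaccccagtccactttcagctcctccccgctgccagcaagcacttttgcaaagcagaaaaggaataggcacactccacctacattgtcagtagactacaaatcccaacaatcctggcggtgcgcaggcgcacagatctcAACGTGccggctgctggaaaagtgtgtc
Bhlhe41: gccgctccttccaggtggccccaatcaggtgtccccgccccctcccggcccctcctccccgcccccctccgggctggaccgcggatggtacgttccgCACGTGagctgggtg
Per1: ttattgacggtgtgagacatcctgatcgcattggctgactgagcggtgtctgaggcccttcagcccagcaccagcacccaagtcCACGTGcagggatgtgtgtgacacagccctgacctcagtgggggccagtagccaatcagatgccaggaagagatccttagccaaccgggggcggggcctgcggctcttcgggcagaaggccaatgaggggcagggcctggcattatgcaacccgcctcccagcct
Per3: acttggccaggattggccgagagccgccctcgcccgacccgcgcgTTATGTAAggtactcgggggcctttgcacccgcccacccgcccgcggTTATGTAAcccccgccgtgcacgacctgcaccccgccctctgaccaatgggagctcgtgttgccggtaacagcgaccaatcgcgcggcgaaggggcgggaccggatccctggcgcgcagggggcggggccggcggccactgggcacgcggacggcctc
Cry1: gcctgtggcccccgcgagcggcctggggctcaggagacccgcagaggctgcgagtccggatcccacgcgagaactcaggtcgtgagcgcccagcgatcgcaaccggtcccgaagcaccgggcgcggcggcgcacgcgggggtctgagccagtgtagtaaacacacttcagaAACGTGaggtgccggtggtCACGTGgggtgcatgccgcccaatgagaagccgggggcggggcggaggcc

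Several limits hold for all of these values. They are RNA levels, and protein, clock phase and activity of the mice were not measured here. With 5 or 7 mice in a condition and an SD within conditions of 0.79 in the median clock gene, differences of moderate size could be missed. Arntl, Per2, Per1 and Nr1d1, which had the largest SDs within conditions among the clock genes, are most open to this. The 2-week comparisons rest in part on libraries that stood apart, and cachexia, tumor stock and any feature shared by the cachectic mice of a week cannot be told apart.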

How the data were processed

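RNA was extracted from the diaphragm of 62 mice in 12 conditions, and 1 library was sequenced for each mouse. Mapping to the mouse genome GRCm38 was done by the authors in CLC Genomics Workbench, and the authors computed and deposited TPM for 47643 genes. The annotation release and the use of strand are not given in the sources used here. The labels name a stranded library kit and the strain C57BL6/J, while the study's methods name another kit and nude mice, and conditions were taken from the labels. TPM carries no counts, so no counting error is given.

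A pseudocount of 1 TPM was added before log2, and the 13578 genes that reached 1 TPM in 5 or more mice were fitted with limma 3.58.1 in R 4.3.3, with a mean for each condition, one spread over all mice and a mean-dependent prior, 2-sided, with Benjamini-Hochberg adjustment over all genes and a threshold of 0.05. Relations were tested with 100000 2-sided permutations within conditions in Python 3.11.15, with numpy 2.4.6, scipy 1.17.1 and pandas 2.3.3, and plots were drawn with matplotlib 3.10.9. The procedures were tested on simulated data. All 10 clock genes are named. Genes of the other clock, clock output and glucocorticoid lists are named where the adjusted p was under 0.05 between cachectic and control mice at 6 or 8 weeks. Genes among the 5 with the highest and the 5 with the lowest r are named for Arntl and for Dbp, except 1 that is not reported here. The clock genes and all lists were chosen with earlier results of these data known. Other settings tried were no filter, a pseudocount of 0.1, median-ratio scaling, quantile normalization, array quality weights, a replicate block, only the groups compared, Dunn's test (used by the study, here adjusted over all genes), leaving out the libraries with few genes (under 17000) or rich in liver transcripts, Arntl as a covariate, and leaving out each mouse.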

Additional observations from a re-analysis of the deposited data

Results flagged for a closer look

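Of 120 sets of mice, each 1 clock gene in 1 condition, 16 held a highest or lowest mouse whose gap to its nearest neighbour, on the log2(TPM + 1) scale, was large for the range of the set. Chance gives about 1 in 20 such sets. Arntl was at 7.82 TPM in control replicate 1 at 6 weeks (others 1.18 to 2.01 TPM). Npas2 was at 1.10 TPM in control replicate 2 at 8 weeks (others 0.213 to 0.404 TPM) and 0.0447 TPM in non-cachectic replicate 5 at 2 weeks (others 0.162 to 0.214 TPM). Per1 was at 2.17 TPM in cachectic replicate 3 at 8 weeks (others 28.2 to 88.9 TPM), 4.14 TPM in non-cachectic replicate 5 at 4 weeks (others 22.2 to 41.7 TPM) and 10.3 TPM in non-cachectic replicate 2 at 8 weeks (others 33.5 to 38.4 TPM). Per2 was at 11.7 TPM in cachectic replicate 3 at 6 weeks (others 21.6 to 23.7 TPM), 1.65 TPM in cachectic replicate 3 at 8 weeks (others 14.9 to 33.7 TPM) and 6.83 TPM in non-cachectic replicate 5 at 2 weeks (others 21.4 to 23.8 TPM). Per3 was at 5.06 TPM in cachectic replicate 3 at 6 weeks (others 12.8 to 17.2 TPM) and 1.26 TPM in cachectic replicate 3 at 8 weeks (others 7.25 to 16.5 TPM). Cry1 was at 0.592 TPM in cachectic replicate 3 at 8 weeks (others 7.03 to 17.7 TPM). Dbp was at 8.76 TPM in cachectic replicate 5 at 8 weeks (others 36.2 to 77.8 TPM) and 32.9 TPM in non-cachectic replicate 5 at 4 weeks (others 82.9 to 119.8 TPM). Nr1d1 was at 55.9 TPM in control replicate 5 at 8 weeks (others 111 to 139 TPM). Nr1d2 was at 36.7 TPM in cachectic replicate 3 at 6 weeks (others 78.8 to 84.3 TPM). Of the 16, 6 were in the libraries with few genes, and cachectic replicate 3 at 8 weeks, which is one of them, held 4. Cachectic replicate 3 at 6 weeks, whose number of genes was not low, held 3 and was also the mouse with the most Arntl in its condition.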

How the results depend on the processing

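Over the settings tried, the number of clock genes past the threshold stayed within 1.5 times in 446 values and moved in 63, and named genes kept their side of it in 121 and lost it in 34, with 0 reversed in direction. For cachectic against control mice at 2 weeks, 1 gene became 0 with no filter, median-ratio scaling, quantile normalization, array weights, only the groups compared, either set of libraries left out and Dunn's test, and 2 with Arntl as a covariate. At 6 weeks, 0 became 2 with median-ratio scaling, quantile normalization, only the groups compared and without the libraries with few genes, 4 with array weights, and 1 without the liver-rich libraries and with Arntl as a covariate. At 8 weeks, 2 became 5 with array weights, 4 with Arntl as a covariate and 3 without the libraries with few genes. Against non-cachectic mice at 6 weeks, 2 became 1 with a pseudocount of 0.1, no filter, without the liver-rich libraries and with Arntl, 5 with array weights, 4 with only the groups compared and without the libraries with few genes, and 0 with Dunn's test. At 8 weeks, 2 became 5 with array weights and without the libraries with few genes, 1 with only the groups compared and Dunn's test, 3 with quantile normalization, and 4 with Arntl. With array weights, the differences between weeks went from 0 to 1 (6 against 4 weeks) and from 0 to 2 (8 against 4 weeks). Over the weeks in cachectic mice, 5 became 3 with quantile normalization, 0 with array weights and only the groups compared, 1 without the libraries with few genes, 4 without the liver-rich libraries and 7 with Arntl. The number of all genes called moved with the setting as well. In cachectic against control mice at 8 weeks, 903 higher and 1102 lower became 1587 and 1675 with median-ratio scaling. With quantile normalization they became 1479 and 1952. Shares of all genes are given in the Results for some of these settings only. The counts by setting are therefore not results about the clock genes as a set. The cause of the moves in these counts was not tested.

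Leaving out each mouse gave 0 to 3 genes against control at 2 weeks, 0 to 1 at 6 and 2 to 2 at 8 weeks; 0 to 3, 0 to 2 and 2 to 3 against non-cachectic mice; 0 to 1 between non-cachectic and control mice at 2 weeks; and 0 to 8 over the weeks in cachectic mice, 0 being without replicate 3 at 2 weeks and 8 without replicate 4 at 4 weeks. The count of 0 against non-cachectic mice at 6 weeks was without cachectic replicate 3. The share of all genes called moved between these fits as well, as given in the Results for the fits named there. The counts are therefore not results about the clock genes as a set. The labels give the same replicate numbers in each group, and deviations of mice with the same number had an r over 0.1 in every pair in 0 comparisons. The median r of mice with the same number was above that of other pairs in some comparisons and below it in others. With 5 pairs in each, this check cannot decide whether the numbers mark a shared day or batch, and the main fit treats the mice as unpaired. With the replicate block, 2 genes became 1 against non-cachectic mice at 6 weeks and 3 at 8 weeks, and no other count of clock genes moved. Relations past the threshold numbered 26 to 31 of 45 under rescaling, another pseudocount or without the liver-rich libraries, 32 without the libraries with few genes, and 27 to 32 without each mouse, against 29. Arntl as a covariate and the settings for relations were chosen after seeing the data. Depth could not be weighed, since TPM carries no counts.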
